A study of Mus musculus with 12 samples.

Results

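The promoter regions of protein-coding genes were examined in ATAC-seq peak lists of mouse primary cortical neurons. ATAC-seq marks accessible chromatin because the transposase Tn5 inserts sequencing adapters where DNA is not wrapped tightly around nucleosomes. The peaks of all 12 libraries were merged where they overlapped by 1 bp or more, which gave 263785 regions. Of these, 258721 lay on chromosomes 1 to 19, and 35759 of them came within 1 kb of a transcription start site of a protein-coding gene in the GENCODE vM21 annotation of GRCm38. These 35759 regions are the promoter regions, and the remaining 222962 served as the comparison (other regions).

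The neurons came from cortices of wild-type C57BL/6 embryos at embryonic day 18 and formed 4 groups of 3 libraries. The PBS group received the vehicle for 7 days. The PFF group received preformed fibrils of human α-synuclein, aggregates that seed further aggregation in neurons, for 7 days. The PFF+MLi-2 group received the same fibrils and, over the final 5 days, MLi-2, which inhibits the kinase LRRK2. The PFF+Rab5 ASO group received the fibrils and, over the final 3 days, antisense oligonucleotides against the endosomal GTPases Rab5a and Rab5b. The free-text descriptions of the treated libraries name PBS in place of PFF, and the groups were taken from the titles and treatment labels, which name PFF. All libraries carry the label batch 1. They are cultures, so a change in the mixture of cell types and a change within cells cannot be told apart.

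A promoter is the stretch of DNA around a transcription start site on which RNA polymerase and its general factors assemble. Most promoters of widely expressed genes lie in CpG islands, which are rich in the dinucleotide CG and stay free of nucleosomes just upstream of the start in nearly every cell type. Promoters poor in CG belong more often to tissue-restricted genes, and some of them hold a TATA box. Chromatin that opens and closes with cell state lies more often at enhancers away from promoters than at promoters themselves.

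Depth limits what single regions can show. The lists held 137417 to 184717 peaks per library. The fold enrichment and p-value of a peak together give back the fragment pileup at its summit, and the median pileup per library was 25 to 27 fragments at promoter peaks and 15 to 17 elsewhere. The relative depth of the libraries (mean 1) was 0.775 to 0.919 in PFF, 0.912 to 0.976 in PBS, 0.957 to 1.03 in PFF+MLi-2 and 1.05 to 1.31 in PFF+Rab5 ASO. The narrowest peak measured 53 to 59 bp in PFF+Rab5 ASO lists, as against 62 to 66 bp elsewhere. This width enters the estimate of relative depth as its divisor, so the 2 measures are not independent. Both differed between groups, with overlap of PFF and PBS, and their part in the comparisons below was not tested.

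Height is given throughout as a percentile, the rank of a region's fold enrichment within the peak list of its own library on a scale from 0 to 100, because fold values from separately called lists are not on a common scale. The fold is measured over a local background, so a region with a high pileup in an open neighbourhood can have a low percentile.

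Sequences around the summits of the promoter regions on which the comparisons turn are printed first. They were read from the GRCm38 genome on the strand of the gene, 5′ to 3′, in lower case, and trimmed to stretches that hold no annotated exon. Capitals mark matches to TGANTCA (the letters of AP-1 elements), TATAAA (the TATA box) or CCAAT (the NF-Y element) on either strand, and a TATA box on the opposite strand reads TTTATA. The regions near 4833427G06Rik and Hc were among those of smallest p-value for height in PFF vs PBS, the former higher and the latter lower with PFF.
4833427G06Rik (chr9:51103131-51103281, minus strand): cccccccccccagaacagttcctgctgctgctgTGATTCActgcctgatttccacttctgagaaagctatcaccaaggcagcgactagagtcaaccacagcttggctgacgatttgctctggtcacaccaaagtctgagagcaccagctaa
Hc (chr2:34993744-34993894, minus strand): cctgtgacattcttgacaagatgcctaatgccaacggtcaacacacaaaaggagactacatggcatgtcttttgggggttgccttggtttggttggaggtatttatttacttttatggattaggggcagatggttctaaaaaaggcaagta
The Qtrt2 region had peaks in every PBS and PFF+MLi-2 library and none with PFF alone, and the Cnksr3 region stood higher with MLi-2 than with PFF alone.
Qtrt2 (chr16:43869658-43869808, minus strand): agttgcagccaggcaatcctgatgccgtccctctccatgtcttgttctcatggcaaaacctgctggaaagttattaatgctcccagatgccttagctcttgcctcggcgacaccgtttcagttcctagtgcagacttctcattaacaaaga
Cnksr3 (chr10:7211213-7211363, minus strand): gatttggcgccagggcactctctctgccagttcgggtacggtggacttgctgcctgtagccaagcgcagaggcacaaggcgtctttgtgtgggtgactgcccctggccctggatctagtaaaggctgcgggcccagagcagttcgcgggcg
The Gpr85 and Btbd9 regions had the largest called rise and fall in height in PFF+Rab5 ASO vs PFF, and the Adss and Pate1 regions were gained and lost in that comparison.
Gpr85 (chr6:13838123-13838219, minus strand): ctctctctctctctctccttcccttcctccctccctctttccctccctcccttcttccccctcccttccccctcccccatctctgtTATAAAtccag
Btbd9 (chr17:30524504-30524654, minus strand): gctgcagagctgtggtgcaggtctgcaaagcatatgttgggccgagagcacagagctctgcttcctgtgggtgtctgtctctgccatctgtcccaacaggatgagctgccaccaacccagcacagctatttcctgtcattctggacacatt
Adss (chr1:177768942-177769092, minus strand): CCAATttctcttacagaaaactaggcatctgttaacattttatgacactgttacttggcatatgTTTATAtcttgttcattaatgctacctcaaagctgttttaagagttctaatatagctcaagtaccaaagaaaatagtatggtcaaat
Pate1 (chr9:35687147-35687297, minus strand): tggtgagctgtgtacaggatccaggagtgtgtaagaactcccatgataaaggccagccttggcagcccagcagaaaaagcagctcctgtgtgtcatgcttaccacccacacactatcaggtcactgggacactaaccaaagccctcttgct
The promoter of Dync1i2, an intermediate chain of the motor dynein, is shown as an example from the top of the height ranking.
Dync1i2 (chr2:71211620-71211705, plus strand): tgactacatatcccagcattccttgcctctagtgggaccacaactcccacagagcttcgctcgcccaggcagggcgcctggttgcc
The stretches differ in base composition. CG pairs numbered 9 in the 151 bases at Cnksr3 and 3 in the 86 bases at Dync1i2, 4 at Qtrt2, 2 at 4833427G06Rik, 1 each at Hc and Btbd9, and 0 at Gpr85, Adss and Pate1. The share of G and C was 63.6% at Cnksr3 and 31.1% at Adss.

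Promoter regions were called more steadily than other regions. A peak was present in all 12 libraries at 17826 promoter regions (49.9%) and at 53327 other regions (23.9%). At the other end, 6261 promoter regions (17.5%) and 62731 other regions (28.1%) had a peak in 1 library. The median promoter region was 223 bp wide (interquartile range 109 to 541) and stood at percentile 39.0 (13.2 to 84.5), against 143 bp and percentile 35.0 for other regions. Within each library, promoter peaks were wider than other peaks by 62.8 ± 2.08 bp (difference of medians, SD, n = 12 libraries) and promoter regions stood 19.4 ± 2.39 percentile points higher. Over regions called in all 12 libraries the latter difference was smaller, at 8.64 to 15.1 points per library. With all regions both differences were positive in 12 of 12 libraries, with an exact sign-flip permutation p of 0.000488 (two-sided), the smallest that 12 libraries can give.

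The members fell into classes with distinct levels. A region was called CpG-rich when the 500 bp around its nearest start had at least 50% G and C and an observed CG count of at least 0.6 of that expected from base composition. The 20478 CpG-rich regions (57.3%) stood at a median percentile of 56.3 and width of 351 bp, and 60% of them were called in all 12 libraries. The 15281 CpG-poor regions stood at percentile 32.5 and 169 bp, and 36.3% were called in all 12.

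Position relative to the start separated the members further. The 15376 regions that covered a start (43.0%) stood at percentile 87.2 with a median width of 581 bp, and 85.5% of them were called in all 12 libraries. The 20383 regions beside a start stood at percentile 18.7 with a width of 130 bp, and 23.0% were called in all 12. The class of highest level was the 10895 CpG-rich regions covering a start, at percentile 91.5 and 676 bp, of which 93.7% were called in all 12. The 4481 CpG-poor regions covering a start stood at percentile 61.4 and 299 bp, with 65.5% called in all 12. The 2697 regions near starts of 2 or more genes, 2386 of them near starts on both strands, stood at percentile 73.1.

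Summits gathered just upstream of the start. In 33.8% of promoter regions the highest summit lay within 200 bp upstream of the nearest start and in 15.7% within 200 bp downstream. The median absolute distance was 207 bp over all members, 77 bp in those called in all 12 libraries and 362 bp in those called in 1 library. The share of peak summits within 200 bp upstream was 34.5% to 37.1% per library, so this profile was shared by the 4 groups. At the edge of the 1 kb rule, the 1166 regions at 901 to 1000 bp from a start were called in all 12 libraries in 28.4% of cases and stood at percentile 25.3, and the 1059 regions at 1001 to 1100 bp, which the rule left out, gave 27.4% and percentile 21.9.

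**Figure D1:**
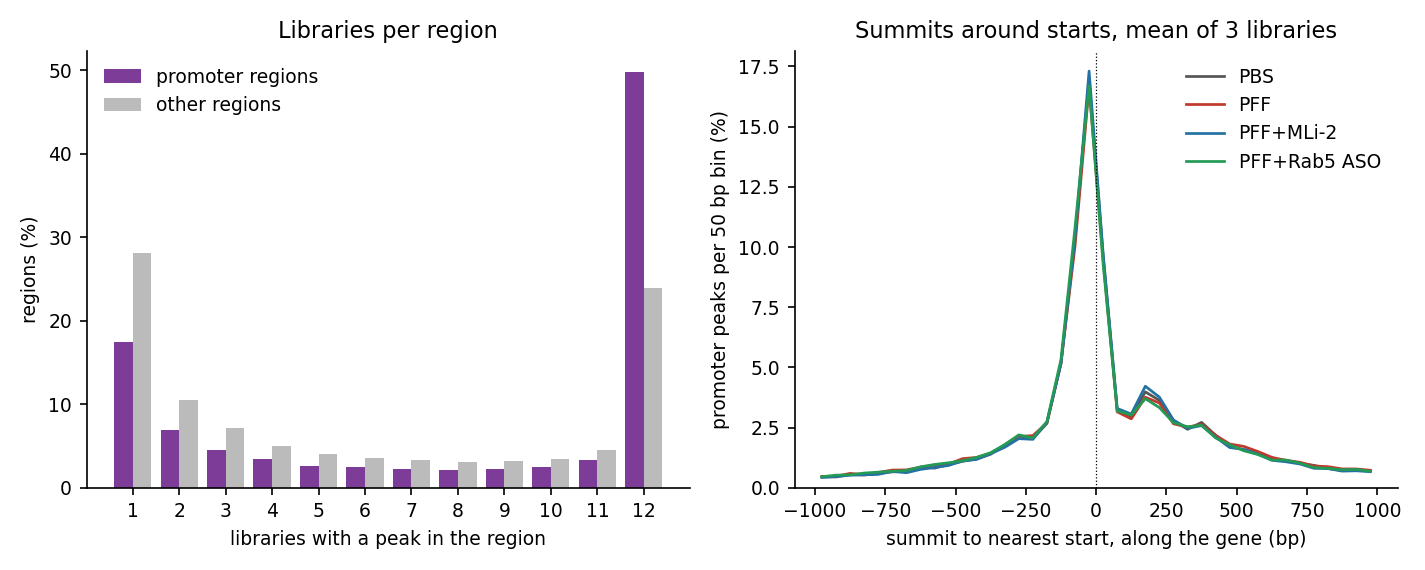
Left, percent of promoter and of other regions (y axis) by number of libraries with a peak (x axis). Right, percent of promoter peaks per 50 bp bin (y axis) by distance of the summit from the nearest start in bp (x axis), 1 line per group as the mean of 3 libraries; 49.9% of promoter regions and 23.9% of other regions were called in 12 libraries, and the lines of the 4 groups lie close together with their peak just upstream of the start.

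Of the 20807 protein-coding genes on chromosomes 1 to 19, 15084 (72.5%) had a promoter region, 13355 (64.2%) had one in all 12 libraries, and 10245 had at least 2. The 10 promoter regions of highest mean percentile were those near Pik3c3, Dync1i2, Gm49359, Pnpt1, Ccdc150, Ccdc82, Taf7, Scfd1, Ift74 and Rpe, each covering a start with its summit within 66 bp of it. Pik3c3 is the lipid kinase of autophagy and endosome traffic, Pnpt1 a mitochondrial exoribonuclease, Taf7 a subunit of the general transcription factor TFIID, Scfd1 a factor of transport between endoplasmic reticulum and Golgi, and Ift74 a component of intraflagellar transport in cilia. Width and height did not go together at the extremes. The widest region, near the cytokine receptor gene Crlf2, spanned 2479 bp at percentile 36.1, whereas those near the transcriptional coactivator gene Ncoa2 (2030 bp), the DNA polymerase gene Rev3l (1992 bp), and the cytokine receptor gene Csf2ra (1909 bp) stood at percentiles 83.5, 72.9 and 61.4.

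Gene families differed widely in how many members had an open promoter. Here and in the gene lists below, a gene with several regions is represented by the one called in most libraries. Ties went to the region of highest mean percentile. Over all promoter regions called in all 12 libraries the median percentile was 84.6. A promoter region was called in all 12 libraries at 75 of 78 ribosomal protein genes (median percentile 96.0), 36 of 38 proteasome genes (97.7), 33 of 34 NADH dehydrogenase genes of the respiratory chain (96.3), 57 of 67 histone genes (87.0) and 311 of 358 zinc finger genes named Zfp (95.2). Families named for other tissues had fewer. A region in all 12 libraries was present at 13 of 1086 olfactory receptor genes, 4 of 325 vomeronasal receptor genes, 5 of 49 keratin genes, 2 of 39 Hox genes and 0 of 42 beta-defensin genes. A region of any reproducibility was present at 73, 8, 16, 17 and 3 of these genes.

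The cell type was checked with marker genes. All 9 neuronal markers on these chromosomes had a promoter region in all 12 libraries, with a median percentile of 80.4 and a range from 58.6 at Rbfox3, which encodes the nuclear antigen NeuN, to 97.3 at Syt1, the calcium sensor of vesicle release. Tubb3, the neuronal tubulin, stood at 71.6 and Map2, the dendritic microtubule protein, at 96.2. Cortical glutamatergic markers had a region in all 12 libraries at 8 of 9 genes, with Neurod6 at 87.0, Neurod2 at 78.0 and the vesicular glutamate transporter Slc17a7 at 14.3. Markers of GABAergic neurons did so at 6 of 8, with the GABA-synthesizing enzymes Gad1 at 40.1 and Gad2 at 54.3 and the GABA transporter Slc32a1 at 52.6.

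Promoters of some glial and all progenitor markers were also accessible. A region in all 12 libraries, which 64.2% of all genes had, was present at 6 of 8 astrocyte markers (Gfap 39.7, Aldh1l1 86.7, with Aqp4 in 10 libraries), 3 of 7 oligodendrocyte markers (Olig1 88.7) and 6 of 6 progenitor markers (Pax6 81.3, Nes 61.4, Sox2 84.4). Of the other oligodendrocyte markers, Cspg4 had a peak in 9 libraries at percentile 9.88, Sox10 in 9 at 11.1 and Mag in 4 at 31.1, and Mog had no promoter region. Microglial markers had no region in all 12 libraries. Cx3cr1, Aif1, Itgam and Tyrobp had no promoter region, Csf1r had a peak in 7 libraries at percentile 30.9 and C1qa in 6 at 22.0. Of the endothelial and mural markers 2 of 6 had a region in all 12 libraries. The receptor genes Kdr of endothelium and Pdgfrb of mural cells stood at percentiles 73.5 and 66.9, the endothelial junction gene Cldn5 and the mural gene Rgs5 each had a peak in 1 library, and the endothelial adhesion genes Pecam1 and Cdh5 had no promoter region. An open promoter is not expression. Among 8 genes of other tissues, Myh6, Apoa2, Tnp2 and Prm1 had no promoter region, the liver gene Alb had a peak in 3 libraries and the insulin gene Ins2 in 5, and the other two had a region in all 12. Actn3, an actinin of fast muscle, stood at percentile 97.7 and Ckm, the muscle creatine kinase, at 81.2.

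**Figure D2:**
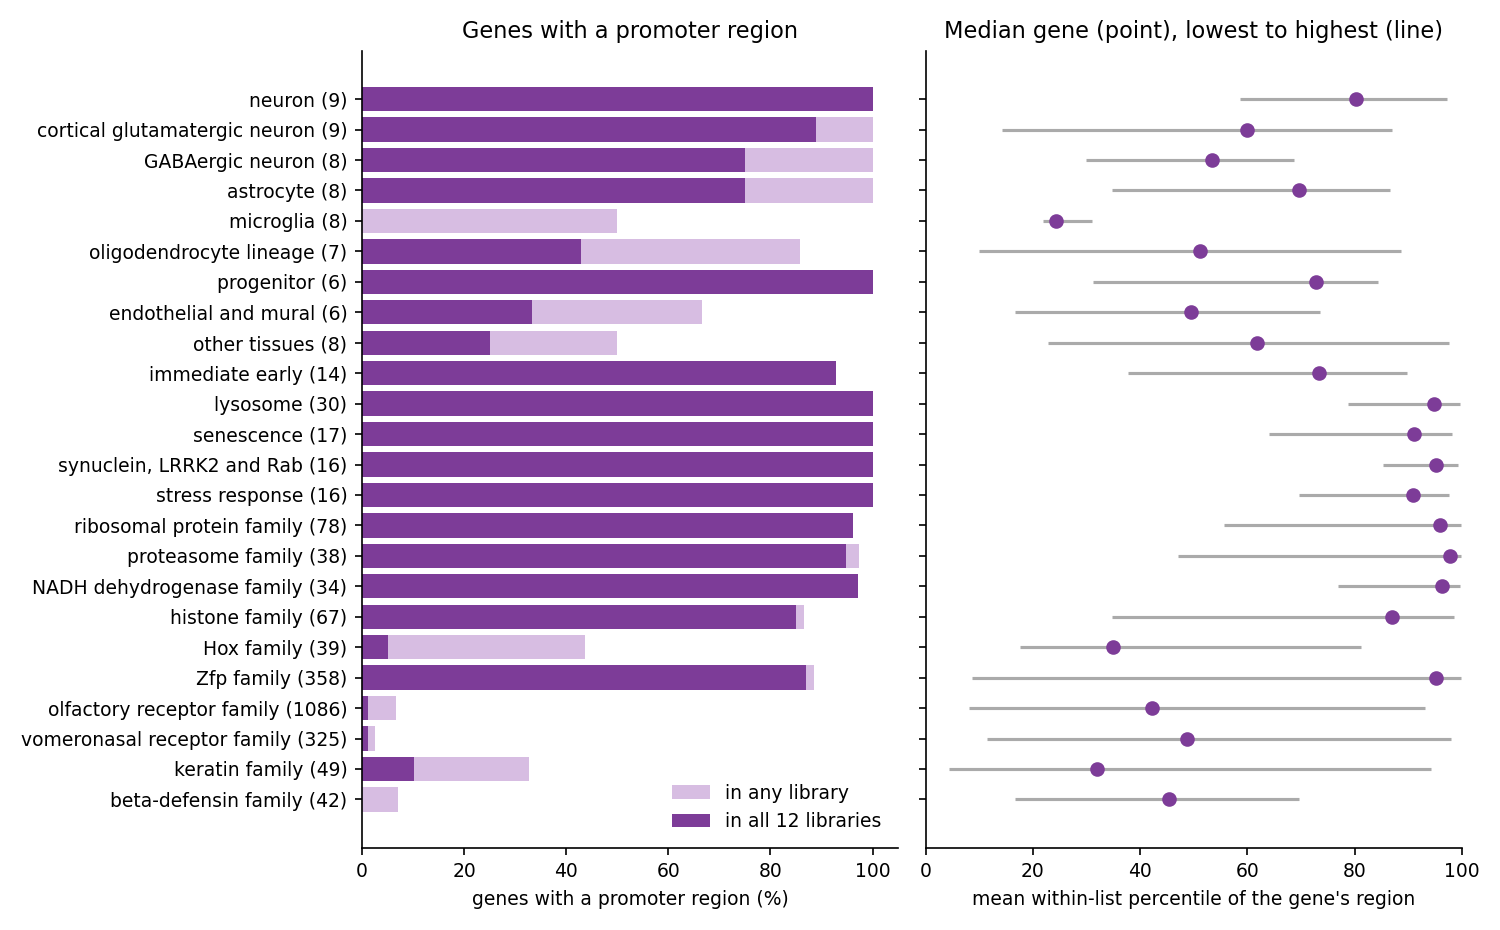
Left, percent of the genes of each list with a promoter region in any library (light bars) and in all 12 (dark bars), with the number of genes in brackets. Right, mean percentile of the gene's region (0 to 100), as the median gene (point) and the lowest to highest gene (line); receptor, keratin and defensin families have the fewest genes with a region, and neuronal markers have one in 9 of 9.

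Genes at the centre of the study had high promoters in every group, a level that many other promoters shared. The median percentile was 84.6 over all promoter regions called in all 12 libraries and 91.5 over CpG-rich regions covering a start. The region shown for each gene is the one called in most libraries and, among ties, the highest. Regions in all 12 libraries stood at percentile 97.1 at Lrrk2, 92.7 at Rab5a, 95.0 at Rab5b, 98 at Rab5c, 94.3 at Tfeb, the transcription factor of lysosomal genes, 85.4 at Plekhf1, an endosomal phosphoinositide-binding protein, and 89.6 at Lmnb1, the nuclear lamin B1. None of these 7 regions passed limma at the 0.05 level, whichever comparison was made. The largest shares that passed in a comparison were 1.19% of promoters and 3.83% of all regions, so 0 of 7 does not set them apart. At Lrrk2 the percentile was 92.7 ± 2.64 with the Rab5 ASO (SD, n = 3 libraries), below PBS (98.2 ± 0.89), PFF (98.3 ± 0.85) and PFF+MLi-2 (99.4 ± 0.22), with limma adjusted p = 0.0700 for PFF+Rab5 ASO vs PFF. The 30 lysosomal genes all had a region in all 12 libraries, at a median percentile of 94.8, from 78.8 at the glucuronidase gene Gusb to 99.6 at Tmem106b, a lysosomal membrane protein. The 16 genes of the list of synuclein, LRRK2 and Rab genes (95.3), the 17 senescence genes (91.0) and the 16 stress response genes (90.8) likewise all had one. In each of these 4 lists 0 regions passed limma in any comparison, and at those shares this does not set the lists apart either.

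With whole peak lists, the number of promoter regions called per library did not pass the test between the groups. The PBS libraries had 25557, 22210 and 23307, the PFF libraries 25334, 25730 and 24058, the PFF+MLi-2 libraries 22863, 22595 and 23128, and the PFF+Rab5 ASO libraries 25271, 23034 and 23303. PFF libraries were the highest on average (25041 ± 874, SD, n = 3) and PFF+MLi-2 libraries the lowest (22862 ± 267), without overlap between these 2 groups, while PBS (23691 ± 1706) spanned most of the range. The exact permutation test over all partitions of the libraries into 4 groups of 3 (one-sided) gave p = 0.189, and adjusted p = 0.264 over the 7 measures tested. CpG-rich regions were most numerous in PFF (15593 ± 489) and fewest in PFF+MLi-2 (14589 ± 156), with 15005 ± 762 for PBS and 15038 ± 624 for PFF+Rab5 ASO (exact permutation adjusted p = 0.267), and CpG-poor regions numbered 9447 ± 410, 8273 ± 128, 8686 ± 945 and 8832 ± 630 in that order (exact permutation adjusted p = 0.264).

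The count depended on how far down each list it reached. The top peaks of a list are here those of smallest p-value from the peak caller, not those of highest fold. When the 137417 top peaks were taken from every list, the PBS libraries held 22720, 22417 and 22637 promoter regions, the PFF libraries 22863, 23252 and 22849, the PFF+MLi-2 libraries 22180, 22078 and 22552, and the PFF+Rab5 ASO libraries 21981, 21298 and 21628. The PFF libraries then all lay above, and the PFF+Rab5 ASO libraries all below, every library of the other groups (exact permutation p = 0.00026, adjusted p = 0.00182, one-sided). In pairwise exact permutation tests 3 libraries against 3 cannot go below p = 0.1, so the single comparisons of these measures cannot pass 0.05.

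With whole peak lists, promoter peaks were narrowest on average in PFF+Rab5 ASO, and this order turned when equal numbers of top peaks were taken. The median width was 172, 184 and 165 bp in that group, against 190, 188 and 181 bp in PBS, 190, 194 and 195 bp in PFF, and 189, 186 and 185 bp with MLi-2. Replicates 1 and 3 of PFF+Rab5 ASO lay below all other libraries, and PFF+Rab5 ASO replicate 2 lay inside the range of PBS. The exact permutation test gave p = 0.0204, which did not pass after adjustment (adjusted p = 0.143). Without PFF+Rab5 ASO replicate 2 the adjusted exact permutation p was 0.0136. Over the 137417 top peaks of each list the median width was 234, 223 and 201 bp in PFF+Rab5 ASO, 236, 188 and 195 bp in PBS, 231, 236 and 220 bp in PFF, and 204, 198 and 197 bp with MLi-2. The PFF+Rab5 ASO mean was then above those of PBS and PFF+MLi-2, with an exact permutation p of 0.238. Other peaks were also narrower in this group with whole lists, at 111 ± 5.5 bp.

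The median percentile of promoter regions was 71.0, 68.5 and 70.7 in PFF, against 71.1, 75.7 and 74.3 in PBS, 73.7, 75.5 and 72.6 with MLi-2, and 71.6, 76.0 and 74.9 with the Rab5 ASO. With whole lists all 3 PFF libraries lay below every other library, PFF replicate 1 by a narrow margin. The group means were 70.0 ± 1.4, 73.7 ± 2.4, 73.9 ± 1.4 and 74.1 ± 2.3 in the same order (exact permutation p = 0.105, adjusted p = 0.264). The separation was lost when each list was limited to its 137417 top peaks by p-value, since PFF replicate 3 (71.04) stood above PBS replicate 1 (70.18). Over regions called in all 12 libraries, PFF (85.3, 84.5 and 83.9) overlapped PBS (86.1, 84.6 and 85.3) and PFF+MLi-2 (84.4, 85.3 and 84.1), and PFF+Rab5 ASO (86.5, 86.1 and 86.2) lay above all of them. The gap between promoter and other regions (exact permutation adjusted p = 0.404) and the share of peaks that lay in promoters, 19% to 23.1% per library (adjusted p = 0.264, the same test), did not pass either.

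**Figure D3:**
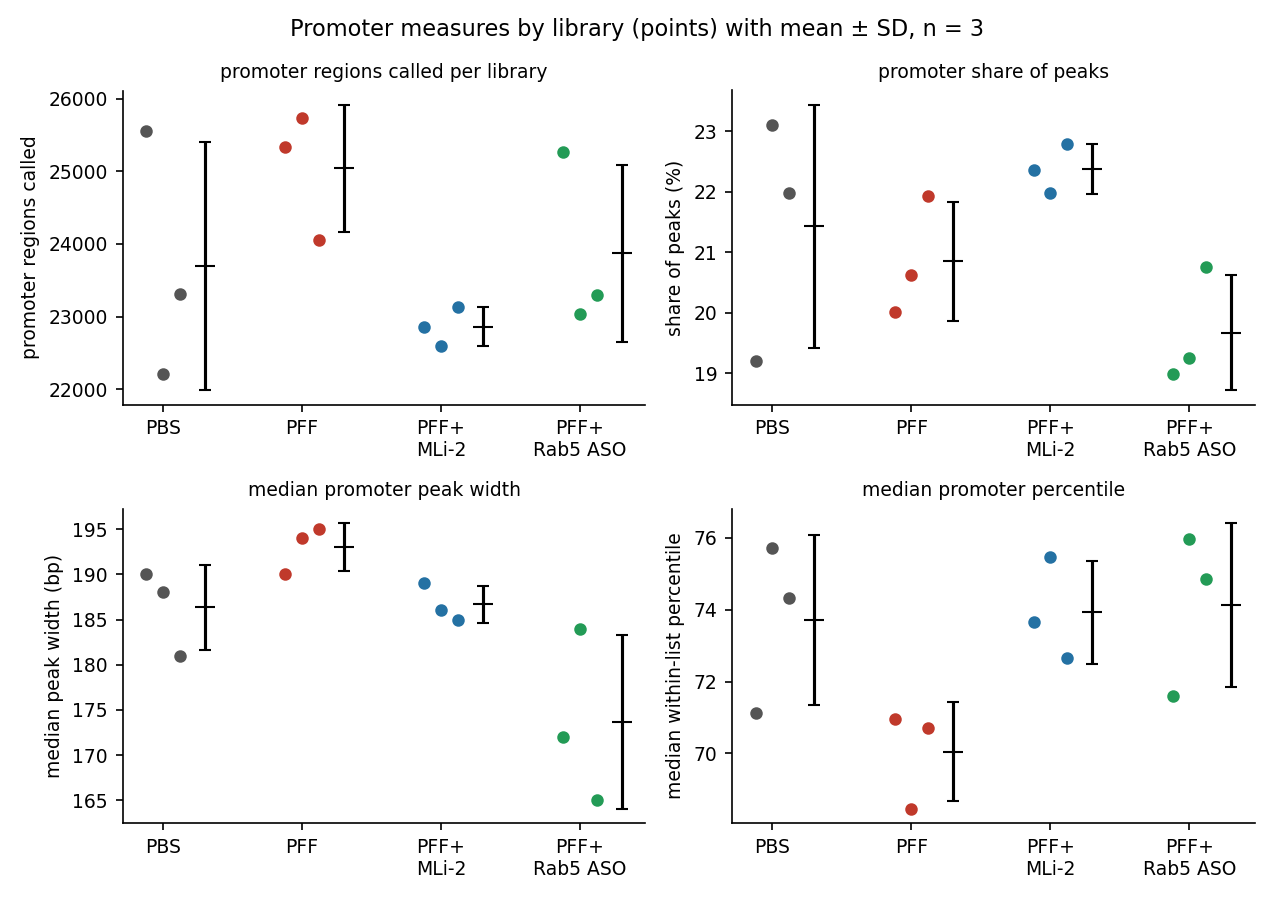
Promoter regions called, promoter share of peaks (%), median promoter peak width (bp) and median promoter percentile per library (points) in the 4 groups, with the mean and SD of 3 libraries; the axes do not start at 0. From whole lists, PFF libraries have the lowest median percentiles, 68.5 to 71.0, and PFF+Rab5 ASO has the lowest mean width, with its libraries at 165 to 184 bp overlapping PBS at 181 to 190 bp.

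The comparison of PFF with PBS asks which promoters open or close with fibrils. A region was counted as gained when all 3 libraries of the treated group and 0 of the reference group had a peak, and as lost in the reverse case, a rule that carries no test. PFF gained 231 promoter regions and lost 60, of 32247 called at least once in these 6 libraries. That is 0.716% and 0.186% of promoter regions, against 1.10% and 0.405% over all regions. Gained regions made up 79.4% of the changed promoters, and 64.9% (146 gained, 79 lost) when equal numbers of top peaks were taken. Single libraries moved this share, to 56.7% without PBS replicate 2 (323 gained, 247 lost) and 84.5% without PFF replicate 3 (579 and 106). Without PBS replicate 2, gains made up 48.2% of the changes over all regions.

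The gained promoter regions were mostly weak peaks beside a start. Of the 231, 18.2% covered a start and 39.0% were CpG-rich, against 43.0% and 57.3% of all members. Their median distance from the start was 414 bp and their median percentile 16.8. Lost regions were similar, with 6.67% covering a start and 28.3% CpG-rich. Of the regions gained with PFF, 50 (21.6%) had a peak in at least 2 PFF+MLi-2 libraries and 89 (38.5%) in at least 2 PFF+Rab5 ASO libraries, and 84 and 81 had a peak in no library of these groups. Of the 60 lost regions, 25 and 19 had a peak in at least 2 libraries of PFF+MLi-2 and PFF+Rab5 ASO. These shares were below those of all members, of which 62.2% and 64.6% had a peak in at least 2 libraries of the same groups, and 9022 and 7599 of the 35759 had none. Gained and lost regions lack a peak in 3 libraries by rule, whereas 49.9% of all members had one in all 12. A lower share cannot be told apart from that choice, so it shows nothing about the treatments.

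The gained regions of highest percentile were near Gm21992, Arhgap20, Olfr803, Shisa5 and Ip6k3. The region 1031 bp from the start of the predicted gene Gm21992 (chr19:4802941-4803244, in an exon) stood at 64.2, 75.4 and 69.9 in the PFF libraries on 17 to 19 fragments, and the region in an intron of the GTPase-activating gene Arhgap20 (chr9:51832150-51832475) at 55.6, 82.6 and 51.5. Neither had a peak in any library of the other 3 groups. The region at the start of the inositol phosphate kinase gene Ip6k3 (chr17:27167675-27167893) stood at 45.9, 64.3 and 60.8 in PFF, had peaks in 2 PFF+MLi-2 libraries at 4.97 and 5.87, and in 1 PFF+Rab5 ASO library at 24.6. The lost regions were near Qtrt2, Dcstamp, Ccdc54, Car13 and Inmt. The intronic region 338 bp upstream of Qtrt2, whose product modifies transfer RNA, stood at 81.3, 49.3 and 89.4 in PBS and at 65.1, 77.0 and 49.8 in PFF+MLi-2. The region at the start of the carbonic anhydrase gene Car13 (chr3:14641623-14641861) stood at 60.4, 29.9 and 62.8 in PBS and at 65.1, 55.4 and 49.8 in PFF+MLi-2. Such regions rested on 11 to 24 fragments per library in PBS.

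Height was tested over the 72465 regions called in all 12 libraries, 17826 of them promoters, as normal scores of the rank within a library. Effects are therefore in SD of the score. In PFF vs PBS limma called 0 promoter regions at an adjusted p of 0.05 and 0 (0%) over all regions, and likewise 0 promoter regions under each of the other settings run. At an unadjusted p of 0.05 there were 884 promoter regions (4.96%) and 9.72% of all regions. The median effect was -0.08 over promoters and -0.02 over all regions, and -0.01 over promoters when ranks were taken from the -log10 p-values.

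The promoter regions of smallest p were as follows, none of them called. The region near 4833427G06Rik (chr9:51103060-51103263, in an intron, summit 1128 bp upstream) stood at 20.5, 17.9 and 45.4 in PBS and at 80.4, 75 and 76.8 in PFF, an effect of 1.64 ± 0.26 (SE). It stood between 58.3 and 72.3 in the other groups. The region covering a start of Crispld2, a secreted protein, stood at 21.3, 12.8 and 33.3 in PBS and at 72.3, 93.6 and 74.6 in PFF (2.02 ± 0.34). Grid2ip, a scaffold of glutamate receptors, and Plekha7, a protein of adherens junctions, had effects of 1.20 ± 0.21 and 1.24 ± 0.22. The PBS and PFF libraries did not overlap in these 4 regions, which follows from choosing them by p, and did not overlap at 15.2% of the promoters and 14.6% of all regions tested.

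In the other direction, the region 483 bp upstream of Hc, the gene of complement component C5 (chr2:34993717-34994068), stood at 66.3, 58.2 and 52.9 in PBS and at 11.5, 9.29 and 8.89 in PFF (-1.51 ± 0.20), on 21 to 26 and 13 fragments. It stood at 50.8, 42.9 and 51.8 in PFF+MLi-2. Ccdc114, of the dynein arms of cilia, Tmem9, a membrane protein, and Cadps2, which primes dense-core vesicles for release, had effects of -1.40 ± 0.24, -1.14 ± 0.21 and -1.31 ± 0.25. The limma adjusted p of all 8 regions was 0.217.

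The immediate early genes, which neuronal activity induces within minutes, had a promoter region in all 12 libraries at 13 of 14 genes (Egr2 had none). Their median percentile was lowest in PFF (67.9 ± 3.0, SD, n = 3) and highest in PBS (76.2 ± 2.7), with PFF+MLi-2 at 72.2 ± 2.5 and PFF+Rab5 ASO at 73.7 ± 4.8. In PFF vs PBS the effect was negative at every gene but Nr4a1 (1 of 13 positive), with a median of -0.28 against -0.08 over all promoters, and limma called 0 of 13, with 0 at an unadjusted p of 0.05. Negative effects were the more frequent sign over all promoters too, at 64.6% of the 17826 tested. Other lists also leaned that way, with 1 of 9 neuronal, 1 of 8 cortical glutamatergic, 2 of 16 stress response, 8 of 57 histone and 13 of 75 ribosomal protein genes positive, and a median of -0.29 at the glutamatergic genes. No test compared the genes of any list with other promoters. The activity-dependent transcription factor gene Npas4 stood at 56.5, 65.4 and 58.8 in PBS and 51.5, 47.1 and 46.4 in PFF, without overlap (-0.45 ± 0.23, limma adjusted p = 0.578). Junb stood at 34.4, 44.9 and 43.8 in PBS and 33.5, 24.7 and 30.7 in PFF. In PFF+MLi-2 vs PFF, which shares the PFF libraries, the effect was positive at 13 of 13 genes, with a median of 0.37 against 0.09 over all promoters, 0 called by limma and 4 at an unadjusted p of 0.05 (6.64% over all promoters). Of all promoters 64.5% had a positive effect in that comparison, as did 9 of 9 neuronal genes, with a median of 0.28.

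In the other lists too, limma called 0 promoter regions in PFF vs PBS, and the genes of largest effect are given here as values. Gad1 stood at 62.2, 54.5 and 36 in PBS and at 22, 8.42 and 36.9 in PFF (-0.90 ± 0.29, limma adjusted p = 0.359), where the groups overlapped. Bcl11b, a transcription factor of deep-layer neurons, stood at 67.4, 63.9 and 66.6 in PBS and at 52.2, 52.1 and 54.5 in PFF (-0.54 ± 0.21), and Hes5, a Notch target of progenitors, at 36.3, 43.3 and 36.7 and at 15.3, 25.3 and 20.3 (-0.52 ± 0.22). Neither pair of groups overlapped. Among disease and stress genes, the lysosomal mannosidase gene Manba had an effect of 0.59 ± 0.25, Plekhf1 of 0.46 ± 0.20, the cell cycle inhibitor gene Cdkn1a of -0.42 ± 0.23 and Ddit3, the stress factor CHOP, of -0.50 ± 0.20. Ddit3 stood at 76.9, 73.8 and 73.2 in PBS and at 68.1, 64.1 and 60 in PFF. In the large families the zinc finger gene Zfp764 had an effect of 0.78 ± 0.28, the olfactory receptor gene Olfr156 of 0.72 ± 0.24, and the histone gene Hist1h3h of -0.63 ± 0.26. In the remaining lists with a region in all 12 libraries the largest effects lay between -0.59 at Gfap and 0.41 at the keratin gene Krt84.

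The comparison of PFF+MLi-2 with PFF asks what LRRK2 inhibition changes in the presence of fibrils. Promoter regions gained numbered 53 and those lost 351, of 31609 (0.168% and 1.11%), against 0.374% and 1.64% over all regions. Gained regions made up 13.1% of the changed promoters, and 33.7% (98 gained, 193 lost) with equal numbers of top peaks. Without PFF+MLi-2 replicate 2 they made up 20.6%. Of the lost regions 14.8% covered a start, and 136 of the 351 had a peak in at least 2 PBS libraries. Of the 53 gained regions, 26 had a peak in at least 2 PBS libraries. These are 38.7% and 49.1%, against 64.2% of all members. Here too the sets were chosen for lacking a peak in 3 libraries, and the lower shares cannot be told apart from that choice.

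The gained regions of highest percentile were near Qtrt2, Casd1, Car13, Dock4 and Dcstamp, and each of the 5 also had a peak in all 3 PBS libraries. The region at a start of Dock4, an activator of Rac and Rap GTPases (chr12:40788495-40788784), stood at 51.3, 59.1 and 48.0 in PFF+MLi-2 and at 22.5, 37.6 and 52.2 in PBS. The region upstream of Casd1, which acetylates sialic acids, stood at 52.7, 53.8 and 70.5 in PFF+MLi-2 and at 52.9, 52.0 and 35.3 in PBS. The lost regions were near Gm21992, Arhgap20, Cux1, Psmb11 and Sirt2. Gm21992 and Arhgap20 were described above as present in PFF alone. The intronic region 157 bp upstream of a start of Cux1, a homeobox gene of upper-layer neurons (chr5:136363381-136363530), stood at 73.7, 42.0 and 68.2 in PFF, at 39.7, 40.5 and 57.0 in PBS and at 60.7, 28.3 and 41.7 in PFF+Rab5 ASO, and had no peak with MLi-2. The region near the deacetylase gene Sirt2 stood at 45.3, 72.8 and 55.6 in PFF and had a peak in 2 PBS and 2 PFF+Rab5 ASO libraries.

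In height, limma called 0 promoter regions and 0 (0%) of all regions in PFF+MLi-2 vs PFF, with 1184 promoter regions (6.64%) and 11.4% of all regions at an unadjusted p of 0.05. With the spread estimated from all 12 libraries limma called 4 promoter regions (0.0224%), against 0.0773% over all regions. The median effect was 0.09 over promoters and 0.01 over all regions, and 0.00 over promoters when ranks were taken from the -log10 p-values.

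None of the 8 promoter regions of smallest p was called, but Ankrd33b, Gtf2i and Gpd2 passed limma with the spread estimated from all 12 libraries (adjusted p = 0.0373, 0.0472 and 0.0488). At a start of Ankrd33b (chr15:31367444-31367751) the percentile was 62.7, 65.3 and 61.2 in PFF and 9.99, 13.9 and 8.40 in PFF+MLi-2 (-1.43 ± 0.19, limma adjusted p = 0.135), on 19 to 22 and 12 to 13 fragments. It was 64.0, 46.6 and 45.7 in PBS and 57.6, 71.7 and 73.8 in PFF+Rab5 ASO, so the PFF+MLi-2 libraries lay below every other library. Pcp4, a calmodulin-binding protein, Gtf2i, the general transcription factor TFII-I, and Enpp6, a choline phosphodiesterase of oligodendrocytes, had effects of -1.34 ± 0.20, -1.44 ± 0.22 and -1.32 ± 0.20. Upwards, the region 949 bp downstream of a start of the scaffold gene Cnksr3 (chr10:7211022-7211397) stood at 24.2, 26.9 and 14.3 in PFF and 62.0, 62.4 and 60.5 in PFF+MLi-2 (1.33 ± 0.19). Hc had an effect of 1.25 ± 0.19, and the mitochondrial genes Oma1, an inner membrane protease, and Gpd2, the glycerol-3-phosphate dehydrogenase, 1.29 ± 0.20 and 1.62 ± 0.25. The limma adjusted p of these 7 regions beside Ankrd33b was 0.152. The PFF and PFF+MLi-2 libraries did not overlap at any of the 8, which again follows from the choice by p, nor at 16.3% of the promoters and 18.1% of all regions tested.

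The comparison of PFF+Rab5 ASO with PFF asks what antisense oligonucleotides against Rab5 change in the presence of fibrils. It gave the largest number of changed promoters of the 5 comparisons. No group received a control oligonucleotide, so lowering of Rab5 and exposure to oligonucleotides as such cannot be told apart. Promoter regions gained numbered 207 and those lost 383, of 32753 (0.632% and 1.17%), against 2.64% and 1.94% over all regions. Gained regions made up 35.1% of changed promoters and 57.6% of all changed regions, and 29.5% (165 gained, 394 lost) and 50.7% with equal numbers of top peaks. Losses thus outnumbered gains among promoters and not over all regions, and the difference was not tested. It was the same in 5 of the 6 fits that left out 1 library. Without PFF replicate 3, gains made up 24.8% of changed promoters and 45.9% of all changed regions.

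The gained and lost regions lay mostly beside starts, with 14.0% and 14.4% covering one and 26.1% and 32.6% CpG-rich. Of the 383 lost, 170 had a peak in at least 2 PBS libraries and 165 in at least 2 PFF+MLi-2 libraries. Of the 207 gained, 34 and 17 did, against 64.2% and 62.2% of all members. The same choice of regions limits what this comparison with all members can show. The region 416 bp upstream of a start of Adss, an enzyme of purine synthesis (chr1:177768917-177769194), stood at 79.3, 66.1 and 79.0 in PFF+Rab5 ASO on 16 to 21 fragments, and that upstream of Tusc3, a subunit of the oligosaccharyltransferase (chr8:39045985-39046125), at 81.8, 79.8 and 57.6. Neither had a peak in any of the other 9 libraries. Regions near Cyp2d26, Fhdc1 and Spink6 were also gained and had peaks in 1 or 2 PBS libraries.

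Among lost regions, the one 149 bp downstream of a start of Pate1, a gene of sperm and testis (chr9:35687094-35687358), stood at 70.2, 74.3 and 75.7 in PFF, 72.9, 66.8 and 67.7 in PBS and 39.9, 39.6 and 49.8 in PFF+MLi-2, and had no peak in PFF+Rab5 ASO. A second region of Tfeb, 899 bp downstream of a start (chr17:47783560-47784010), stood at 62.9, 76.4 and 54.4 in PFF, had a peak in 1 PBS library (36.6) and in 2 PFF+MLi-2 libraries (10.7 and 27.7), and none in PFF+Rab5 ASO. The region of Tfeb described above covers the start and was called in all 12 libraries. A region 217 bp upstream of the GTPase gene Rac1 stood at 63.4, 63.2 and 59.7 in PFF and had a peak in 1 PBS and 1 PFF+MLi-2 library. Gm21992 and Arhgap20 completed the 5 lost regions of highest percentile.

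**Figure D4:**
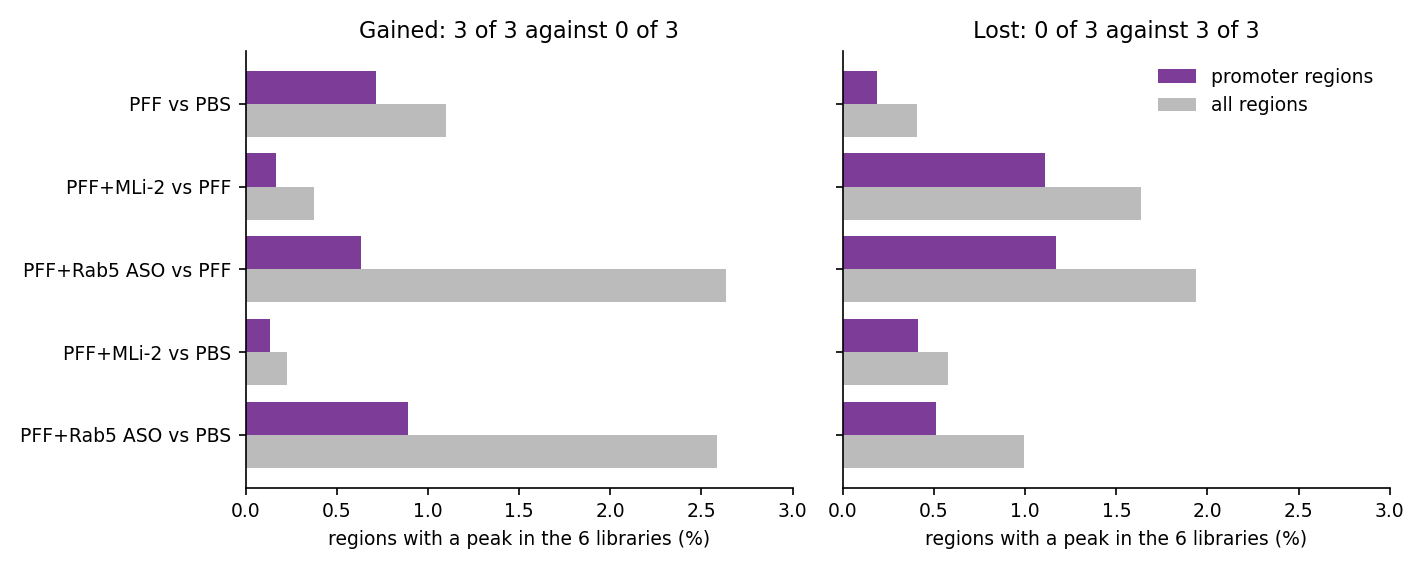
Percent of promoter regions and of all regions (x axis, of those called at least once in the 6 libraries) that were gained (left) and lost (right) in the 5 comparisons (y axis). Promoter shares lie below the shares of all regions in every comparison, with the largest gap for regions gained in PFF+Rab5 ASO vs PFF, 0.632% against 2.64%.

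In height, limma called 212 promoter regions in PFF+Rab5 ASO vs PFF, of which 136 were higher (0.763%) and 76 lower (0.426%), against 1.97% and 1.86% over all regions. Without PFF+Rab5 ASO replicate 1 limma called 0 promoter regions, with 1798 at an unadjusted p of 0.05, and without any other library 15 to 54 (15 without PFF+Rab5 ASO replicate 3, 33 without its replicate 2, and 54, 51 and 25 without PFF replicates 1, 2 and 3). When replicate numbers entered the fit as a block, limma called 105 promoter regions (0.589%), against 2.31% over all regions. The median effect was 0.07 over promoters and 0.01 over all regions, and -0.01 in both cases when ranks were taken from the -log10 p-values.

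Both sets of called promoters covered a start and were CpG-rich less often than the promoters tested, and the differences were not tested. Of the 136 higher regions 50% covered a start and 46.3% were CpG-rich, and of the 76 lower regions 32.9% and 21.1%. Among the 17826 tested, 73.7% covered a start and 68.9% were CpG-rich. The higher regions went from a median percentile of 45 in PFF to 78.3 in PFF+Rab5 ASO and stood at 54.7 in PBS, and the lower ones went from 78.6 to 45.5 and stood at 67.0 in PBS. These levels describe the regions that passed.

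The largest rise was in an intron of Gpr85, an orphan receptor of the brain, 310 bp downstream of a start (chr6:13838015-13838362). It stood at 4.45, 4.35 and 1.40 in PFF and at 61.9, 68.2 and 65.3 in PFF+Rab5 ASO (effect 2.13 ± 0.21 SE, limma adjusted p = 0.0152), on 16 to 20 and 33 to 39 fragments. PBS stood at 6.87, 35.8 and 9.64, so the PFF+Rab5 ASO libraries lay above all others. At Itgbl1, a protein with integrin-like repeats, the percentile was 25.5, 26.7 and 27.0 in PFF and 85.6, 68.7 and 83.5 in PFF+Rab5 ASO (1.80 ± 0.24, limma adjusted p = 0.0152).

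Further rises were at genes of adhesion and signalling. Mdga2, a membrane protein that binds neuroligins, rose by 1.79 ± 0.26, Elmo1, a partner of Dock proteins in the activation of Rac, by 1.74 ± 0.25, and Akap2, an anchor of protein kinase A, by 1.74 ± 0.27 (limma adjusted p = 0.0152, 0.0152 and 0.0178). Among the lists, limma called Npas4 (0.81 ± 0.19), the ribosomal protein gene Rps23 (0.98 ± 0.23), the zinc finger genes Zfp462 (1.16 ± 0.21) and Zfp629 (1.05 ± 0.23) and the vomeronasal receptor gene Vmn1r44 (0.98 ± 0.22), all higher. These are 1 of 13 immediate early, 1 of 75 ribosomal protein, 2 of 311 Zfp and 1 of 4 vomeronasal receptor genes tested, against 1.19% of promoters and 3.83% of all regions, and single genes do not set a list apart. With the replicate block Npas4 did not pass limma (adjusted p = 0.0771). It stood at 68.5, 72.5 and 70.7 in PFF+Rab5 ASO, above every PBS and PFF library, and its lowest value was just under the highest of PFF+MLi-2 (61.6, 68.6 and 54.9).

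The largest fall was in an intron of Btbd9, an adaptor of ubiquitin ligases, 324 bp downstream of a start (chr17:30524483-30524727). It stood at 88.8, 73.7 and 74.7 in PFF and at 34.9, 23.3 and 10.7 in PFF+Rab5 ASO (-1.89 ± 0.26, limma adjusted p = 0.0152), with PBS at 84.1, 69.6 and 58.3 and PFF+MLi-2 at 70.9, 64.9 and 69.4. The region 428 bp upstream of a start of Grin1, the obligatory subunit of NMDA receptors (chr2:25303990-25304440), stood at 75.2, 69.6 and 77.4 in PFF and at 42.0, 4.98 and 25.9 in PFF+Rab5 ASO (-1.61 ± 0.28, limma adjusted p = 0.0221). PBS (63.3, 53.8 and 45.3) lay between them, and PFF+MLi-2 (35.9, 51.2 and 53.6) overlapped the PFF+Rab5 ASO values.

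The other falls were at Gramd1b, which moves cholesterol between membranes (-1.66 ± 0.31, limma adjusted p = 0.0255), Nfyc, a subunit of the CCAAT-binding factor NF-Y (-1.54 ± 0.36, 0.0464), Pcnx (-1.50 ± 0.23, 0.0171) and the sialyltransferase gene St3gal6 (-1.47 ± 0.29, 0.0296). Each region named here for this comparison fell short of limma's threshold without PFF+Rab5 ASO replicate 1. Over the 6 fits that left out 1 library the limma adjusted p ran from 0.0372 to 0.0546 at Gpr85 and Btbd9 and from 0.0437 to 0.131 at Nfyc.

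**Figure D5:**
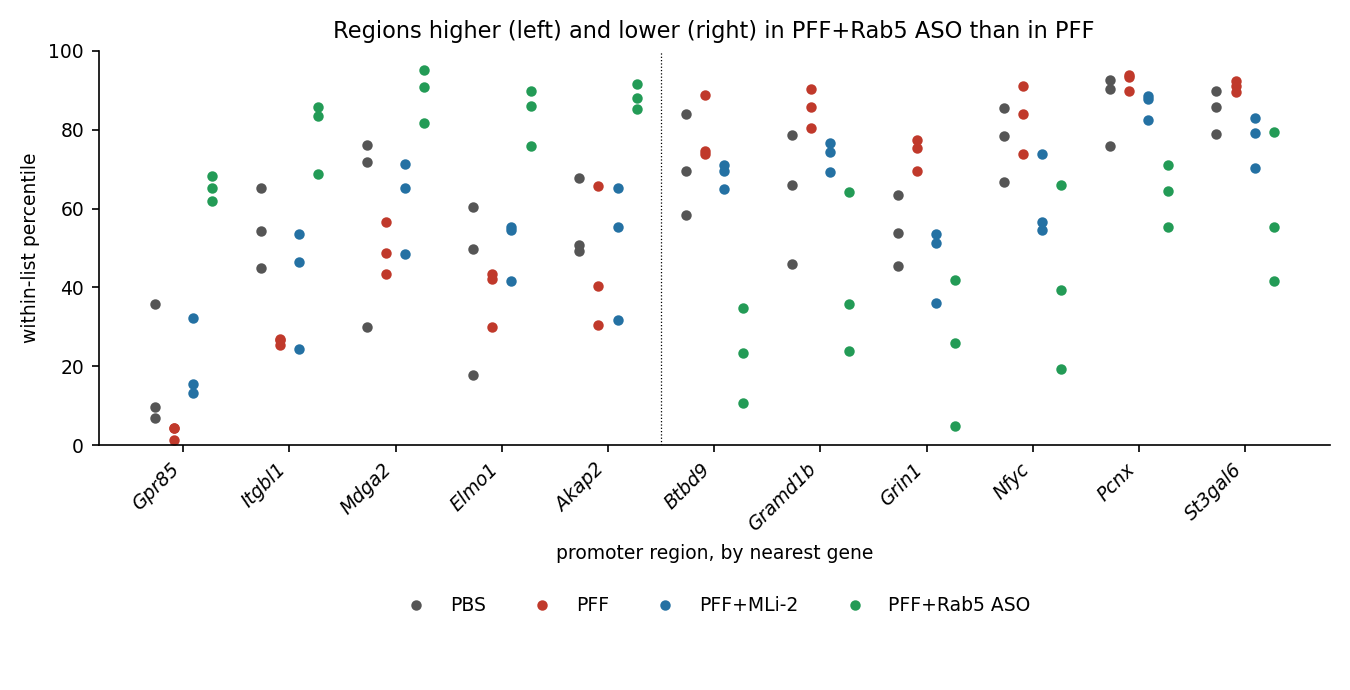
Percentile (y axis, 0 to 100) of promoter regions with large rises and falls in PFF+Rab5 ASO vs PFF, per library (points) in the 4 groups. At Gpr85 the PFF+Rab5 ASO libraries stand at 61.9 to 68.2 and the PFF libraries at 1.40 to 4.45, and at Btbd9 at 10.7 to 34.9 and 73.7 to 88.8.

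The comparisons of the treated groups with PBS share libraries with those above. In PFF+MLi-2 vs PBS, 41 promoter regions were gained and 126 lost, of 30482 (0.135% and 0.413%), against 0.225% and 0.577% over all regions. Gained regions made up 24.6% of changed promoters and 46.1% (70 gained, 82 lost) with equal numbers of top peaks. Single libraries moved this value, to 13.7% without PBS replicate 2 (71 gained, 447 lost), 47.3% without PBS replicate 1 (187 and 208) and 39.9% without PFF+MLi-2 replicate 2 (156 and 235). Of the 126 lost, 50% were CpG-rich. The gained regions of highest percentile were near Fermt1, an activator of integrins, Cacna1c, a calcium channel subunit, and Apol7a, and the lost ones near Bpifa3, Kcnip1, a partner of potassium channels, and Cux1. The region at a start of Fermt1 (chr2:132945503-132945679) stood at 54.6, 55.4 and 49.8 in PFF+MLi-2 and had a peak in 1 PFF library (40.4).

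In height, limma called 0 promoter regions and 0 (0%) of all regions in PFF+MLi-2 vs PBS, with 504 promoter regions (2.83%) and 5.77% of all regions at an unadjusted p of 0.05, and 0 promoter regions under each of the other settings run. The regions of smallest p were near Trim25, a ubiquitin ligase of antiviral sensing (1.24 ± 0.24), Dtnbp1, which encodes dysbindin (0.88 ± 0.20), Rph3a, an effector of Rab3 at synaptic vesicles (0.88 ± 0.21), Mrtfa, an actin-regulated coactivator (-1.16 ± 0.26), Ankrd33b (-1.13 ± 0.21) and Itpr3, a calcium release channel (-1.09 ± 0.20). The limma adjusted p of each was 0.815.

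In PFF+Rab5 ASO vs PBS, 284 promoter regions were gained and 163 lost, of 31828 (0.892% and 0.512%), against 2.59% and 0.991% over all regions. Gained regions made up 63.5% of changed promoters, but 39.6% (187 gained, 285 lost) with equal numbers of top peaks, so the larger side changed. It also changed without PBS replicate 2 (351 gained, 494 lost) and without PFF+Rab5 ASO replicate 1 (386 and 388). Gained regions of highest percentile were near Lars, the leucyl-tRNA synthetase gene, Adss and Tusc3, and lost ones near Pate1, Dcstamp and Ikzf3, a transcription factor of lymphocytes. The region at a start of Ikzf3 (chr11:98545684-98546026) stood at 69.2, 40.5 and 71.9 in PBS and at 61.3, 70.8 and 43.4 in PFF.

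In height, limma called 77 promoter regions in PFF+Rab5 ASO vs PBS, of which 50 were higher (0.280%) and 27 lower (0.151%), against 1.00% and 0.631% over all regions. With ranks from the -log10 p-values limma called 19 promoter regions (0.107%), against 0.479% over all regions. When any 1 library was left out limma called 0 or 1 promoter region, with 1151 to 1431 at an unadjusted p of 0.05. When replicate numbers entered the fit as a block, limma called 0, with 1514 at an unadjusted p of 0.05, so each call named here was lost in that fit. The region at Crispld2 (chr8:120012986-120013293) was higher by 1.79 ± 0.23 (limma adjusted p = 0.0267), with 21.3, 12.8 and 33.3 in PBS and 79.9, 81.5 and 70.5 in PFF+Rab5 ASO. The exonuclease gene Exd2 had an effect of 1.86 ± 0.32. The falls were in an exon of the exocyst gene Exoc6b (-2.04 ± 0.35, limma adjusted p = 0.0313), near the proteasome maturation gene Pomp (-1.60 ± 0.28, 0.0313) and at Btbd9 (-1.57 ± 0.28, 0.0324).

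Short motifs were counted in the 201 bp around the summit, on both strands, as a description of sequence and not of binding. The Sp1 box GGGCGG was present in 37.5% of all promoter windows, in 53.9% of those called in all 12 libraries and in 19.1% of those called in 1 library. CCAAT was present in 23.3%, the ETS element CCGGAAG in 6.64%, the E-box CACGTG in 5.87%, TGANTCA in 5.08%, TATAAA in 4.26%, the NRF1 element GCATGCGC in 2.04% and the cAMP response element TGACGTCA in 1.40%. CpG-rich regions held GGGCGG in 52.2% and TATAAA in 2.56%, and CpG-poor regions in 17.7% and 6.54%.

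The changed regions held GGGCGG less often than all members, at 14.6% to 23.3% of the gained and lost sets and 18.0% to 28.7% of the higher and lower ones. At most 50% of any changed set was CpG-rich, and CpG-poor members held it in 17.7% and members called in 1 library in 19.1%. CCGGAAG was present in 0.433% of regions gained and 1.67% of those lost in PFF vs PBS. TGANTCA was most frequent in the sets lost or lower in PFF+Rab5 ASO vs PFF. Of the 383 promoter regions lost in PFF+Rab5 ASO vs PFF, 56 (14.6%) held it, and of the 76 lower in height, 15 (19.7%) did, against 8.05% of all CpG-poor members. In the regions gained and higher in that comparison the shares were 4.35% and 3.68%. In PFF vs PBS TGANTCA was present in 5.19% of gained and 5.00% of lost regions. The E-box CACGTG was present in 6.49% of regions gained and 3.33% of those lost in PFF vs PBS, against 5.87% of all members. These shares describe lists chosen by their readout, and the differences between them were not tested.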

How the data were processed

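ATAC-seq was performed on 12 libraries of mouse cortical neurons, 3 per group. According to the study's methods and the submitters' processing notes, reads were trimmed with Trim Galore 0.6.7 and aligned to GRCm38 with Bowtie2 2.5.1, and peaks were called per library with MACS2 2.2.7.1 without a control. MACS2 options, duplicate handling and any Tn5 shift are not given in the sources used here. The deposited peak lists give, as the authors' caller wrote them, fold enrichment (a ratio over local background), -log10 p-values and -log10 q-values, a score and the summit offset. Reads were not used here, so read depth is unknown. Relative depth was estimated as the most frequent background that fold and p-value imply in a library, divided by the width of its narrowest peak.

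Peaks were merged over libraries, annotated with GENCODE vM21, and ranked within each library. The height test used limma 3.58.1 in R 4.3.3 on normal scores of ranks over all 72465 regions with a peak in all 12 libraries, with the 6 libraries of a comparison and Benjamini-Hochberg adjustment over all regions. Library measures were compared by exact permutation. Python 3.11.15 with scipy 1.17.1 and pysam 0.24.0 was used. The limma fit and the recovery of pileups from fold and p-value were tested on simulated data. According to the study's methods a biological replicate is 1 pregnancy, whose cultures were divided over the groups at random. The labels do not tie replicate numbers to pregnancies, so a fit with the replicate number as a block was run as an alternative.

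Regions are named in each direction by largest effect among those past limma's threshold with no overlap between groups, or by smallest p where none passed, by highest percentile among those gained or lost, by mean percentile and width over all libraries, and within each gene list as the highest, the lowest and the gene of largest effect in PFF vs PBS. The study's central genes and the leading markers of each cell type are always named, and further list genes were added after their values were seen. The members and lists were chosen with earlier results of these data known. Some items that this rule names are not reported here.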

Additional observations from a re-analysis of the deposited data

How the results depend on the processing

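Promoter peaks were wider and higher than other peaks on average with each other window, start set, peak threshold, merging rule and left-out library tried, by mean differences of 62.5 to 84.7 bp and 16.9 to 27.6 percentile points. Over regions called in all 12 libraries, an alternative chosen after seeing the data, they stood 8.64 to 15.1 points higher per library, and the exact permutation adjusted p was 0.104 for the median promoter percentile (0.264 in the report) and 0.343 for its gap to other regions (0.404). With equal numbers of top peaks, the larger side of the changes in PFF+Rab5 ASO vs PBS and the order of the groups in promoter peak width turned, the latter with an exact permutation p of 0.238. When 2 libraries of a group sufficed for a call, PFF vs PBS gave 1029 gained and 427 lost promoter regions, PFF+MLi-2 vs PFF 312 and 1357, PFF+Rab5 ASO vs PFF 703 and 1354, PFF+MLi-2 vs PBS 331 and 741, and PFF+Rab5 ASO vs PBS 912 and 818. With gene starts in place of all transcript starts they numbered, in the same order, 122 and 27, 21 and 188, 92 and 176, 19 and 81, and 149 and 74. With equal numbers of top peaks, PFF vs PBS gained 146, PFF+MLi-2 vs PFF gave 98 and 193, PFF+MLi-2 vs PBS 70 and 82, and PFF+Rab5 ASO vs PBS 187 and 285, and exact permutation adjusted p-values were 0.00182 for promoter regions called, 0.00242 for CpG-rich and 0.00182 for CpG-poor ones. With a window of 500 bp, which holds fewer regions, PFF vs PBS lost 36, PFF+MLi-2 vs PFF gained 30, PFF+Rab5 ASO vs PFF gained 124, and PFF+Rab5 ASO vs PBS gained 182 and lost 107. The cause of these changes was otherwise not tested.

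Leaving out each library in turn relaxes the rule to 2 libraries in a group. PFF vs PBS then gave 323 to 608 gained and 106 to 247 lost regions, PFF+MLi-2 vs PFF 93 to 145 and 557 to 787, PFF+Rab5 ASO vs PFF 270 to 438 and 517 to 820, PFF+MLi-2 vs PBS 71 to 187 and 208 to 447, and PFF+Rab5 ASO vs PBS 351 to 579 and 246 to 494. Height calls by limma numbered 0 to 54 for PFF+Rab5 ASO vs PFF and 0 to 1 for its comparison with PBS. The exact permutation adjusted p for peak width ranged from 0.0136 to 0.296.

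With ranks from -log10 p-values limma made 127 height calls for PFF+Rab5 ASO vs PFF (212 in the report) and 19 for PFF+Rab5 ASO vs PBS (77). With the spread estimated from all 12 libraries it made 166 in the latter and 4 for PFF+MLi-2 vs PFF. No label says that equal replicate numbers mark the same pregnancy. Libraries of equal number deviated together with correlations of 0.00513 to 0.0788 (median 0.0285), those of unequal number with -0.0705 to 0.0279. All 12 of 12 libraries correlated best with one of their own number. The methods divide each pregnancy over the groups, and this is a hint from the data, not from the labels, that equal numbers mark the same one. The main tests leave such pairing out. With a replicate block limma made 105 height calls for PFF+Rab5 ASO vs PFF and 0 for PFF+Rab5 ASO vs PBS. With groups permuted only within replicate numbers, the exact permutation adjusted p was 0.0972 for peak width and 0.151 for promoter regions called. Named gained and lost regions rested on 9 to 30 fragments, where a peak can be missed at these depths.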
